A study of Drosophila melanogaster with 16 samples.

Results

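The neuron genes nerfin-1, elav, fne and Rbp9 were followed across sorted cells and whole embryos of Drosophila melanogaster. Both were taken with and without overexpression of gcm, the transcription factor that starts glial fate. The 4 genes were chosen by gene symbol, and 6 of 13966 probe sets carried these symbols, 2 each for nerfin-1 and Rbp9 and 1 each for elav and fne, out of 10844 genes represented. Earlier results of the same arrays were in view when the genes were selected, nerfin-1 and fne being among those lower with gcm. Their differences between gcm and control are therefore given as a description, without a test. All 6 probe sets were kept, since no filter on dim signals was applied.

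Affymetrix arrays were hybridised with total RNA of stage 11 embryos. The group called sorted control held neuroectodermal cells of wild-type embryos that carried mCD8-GFP, a membrane protein with a fluorescent tag, purified on anti-mCD8 beads after dissociation, and the group called sorted gcm held such cells from embryos that overexpressed glide/gcm (titled scagcm). The groups called whole control and whole gcm were whole embryos of the control and of the scagcm kind. Which promoter drove the label or gcm, whether whole embryos carried the label too, how many embryos were pooled and whether replicates came from separate collections were not stated by the sources at hand, so p-values measure only the spread between arrays. Bulk RNA cannot tell fewer cells of a type from less RNA per cell. Levels are log2 of the normalised intensity plus 16, so that an intensity of 16, close to background, gives a level of 5.

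New neurons of the fly nerve cord arise from neuroblasts, and gcm turns progeny of the neuroectoderm to the glial route. The zinc finger gene nerfin-1 is transcribed in neural precursors, and its protein, found in newborn neurons, is needed for early axon guidance. Elav, Fne and Rbp9 are related RNA-binding proteins with RNA recognition motifs. Elav is the standard marker of postmitotic neurons and directs neuron-specific splicing, fne stands for "found in neurons", and Rbp9 is known from neurons and from the female germline.

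Of 16 deposited arrays, sorted gcm 2 and 3 were identical in all values and were counted once. The array labelled whole control 3 went against its label. It correlated at a mean of 0.691 with the other whole embryo arrays and 0.931 with the sorted arrays, and it held gcm at 13.10 where the other whole controls ranged from 8.07 to 8.66 in the normalisation that includes it, from which all its levels are given. Results are given from the 14 other arrays, namely 4 of sorted and 3 of whole controls and 3 of sorted and 4 of whole gcm, and again with that array as the fifteenth. Among the 14, gcm stood at 11.66 ± 0.36 (SD, n = 4) in sorted control, 13.09 ± 0.06 (SD, n = 3) in sorted gcm, 8.42 ± 0.30 (SD, n = 3) in whole control and 10.77 ± 0.33 (SD, n = 4) in whole gcm. With 3 or 4 arrays a group, precision is limited by their number.

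In assembly release 6, nerfin-1 lies on chromosome 3L from 909112 to 912319, elav on X from 509235 to 523226, fne on X from 12917477 to 12950417 and Rbp9 on 2L from 2954762 to 2968434. The probe sets are 151651_at and 142626_at for nerfin-1, 154632_at for elav, 144973_at for fne, and 152149_at and 145682_at for Rbp9. The sources at hand do not say which exon each probe set reads, and the level of a probe set is not set against that of another.

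The zinc finger gene nerfin-1 had 4 distinct levels by probe set 151651_at. In sorted control arrays 1 to 4 its level was 11.67, 11.35, 11.56 and 11.92, with a mean of 11.62 ± 0.24 (SD, n = 4). In sorted gcm arrays 1, 2 and 4 it was 9.66, 10.18 and 9.27, with a mean of 9.71 ± 0.46 (SD, n = 3). The lowest sorted control array lay above the highest sorted gcm array. In whole control arrays 1, 2 and 4 the level was 8.56, 8.50 and 7.82, with a mean of 8.29 ± 0.41 (SD, n = 3), and in whole gcm arrays 1 to 4 it was 7.46, 6.75, 6.92 and 6.76, with a mean of 6.97 ± 0.33 (SD, n = 4). From high to low the order ran from sorted control over sorted gcm and whole control to whole gcm, and no neighbours in that order overlapped. The array labelled whole control 3 stood at 10.03, inside the sorted gcm range of 9.25 to 10.15 computed with it, and with that array whole control had a mean of 8.71 ± 0.94 (SD, n = 4).

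The deposited intensities of this nerfin-1 probe set, before any normalisation, kept the same order. They ran from 1438.4 to 2182 in sorted control, from 652.1 to 956.6 in sorted gcm, from 215.2 to 509.6 in whole control and from 96.5 to 178.6 in whole gcm. The groups were thus apart on the authors' own scale as well. Sorted control 4, the highest of its group after normalisation, gave the lowest deposited intensity of its group, and it was also the array with the lowest trimmed mean intensity, 66.6 against 92.4 to 105.5 in the other sorted controls.

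The probe set 142626_at of nerfin-1 separated the sorted groups and not the whole embryo groups. It read 8.78, 9.15, 8.995 and 9.13 in sorted control (mean 9.01 ± 0.17, SD, n = 4) and 7.82, 7.83 and 7.88 in sorted gcm (mean 7.84 ± 0.03, SD, n = 3). It read 6.61, 7.17 and 5.94 in whole control (mean 6.58 ± 0.61, SD, n = 3) and 6.58, 6.42, 6.31 and 6.36 in whole gcm (mean 6.42 ± 0.12, SD, n = 4). Every whole gcm array lay between whole control 4 and whole control 1, so the whole groups overlapped for this probe set. The array labelled whole control 3 read 8.16.

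The Elav family gene fne had the same order of group means as nerfin-1. Its level was 9.19, 9.30, 8.99 and 9.02 in sorted control (mean 9.13 ± 0.15, SD, n = 4) and 7.60, 7.94 and 8.33 in sorted gcm (mean 7.96 ± 0.37, SD, n = 3). It was 6.07, 5.83 and 5.14 in whole control (mean 5.68 ± 0.49, SD, n = 3) and 5.18, 5.19, 5.25 and 5.07 in whole gcm (mean 5.17 ± 0.08, SD, n = 4), close to background. The sorted groups did not overlap, and the whole groups did, because whole control 4 fell among the whole gcm arrays. Within the 3 pairs of whole arrays with the same number fne was lower in gcm in 3, by differences from -0.89 to -0.06. As deposited, the sorted groups of fne met at 1 array of each, sorted control 4 at 281.7 and sorted gcm 4 at 319.4. The array labelled whole control 3 stood at 7.94, within the sorted gcm range.

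The neuron marker elav differed between preparations and overlapped between gcm and control in both. In sorted control it read 10.95, 11.28, 9.96 and 11.59, with a mean of 10.95 ± 0.71 (SD, n = 4), and in sorted gcm 11.00, 10.81 and 10.63, with a mean of 10.82 ± 0.18 (SD, n = 3). In whole control it read 8.81, 8.68 and 7.05, with a mean of 8.18 ± 0.98 (SD, n = 3), and in whole gcm 8.40, 7.88, 7.79 and 7.24, with a mean of 7.83 ± 0.47 (SD, n = 4). Sorted control 3 was the lowest sorted array and whole control 4 the lowest whole array, and these arrays held the lower end of both control ranges. Neither neighbour pair of groups within a preparation differed beyond its spread, while every sorted array lay above every whole array. The array labelled whole control 3 read 9.39, between the whole and the sorted arrays.

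Rbp9, the family member with roles in neurons and ovary, was near background on all arrays. Its deposited intensities ran from 1.3 to 24.4 over both probe sets and all 15 distinct arrays. Group means lay between 4.47 and 5.06 for 152149_at and between 4.60 and 4.95 for 145682_at, and for both the groups overlapped in each of the 4 comparisons. No order is drawn among levels this close to background.

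**Figure D1:**
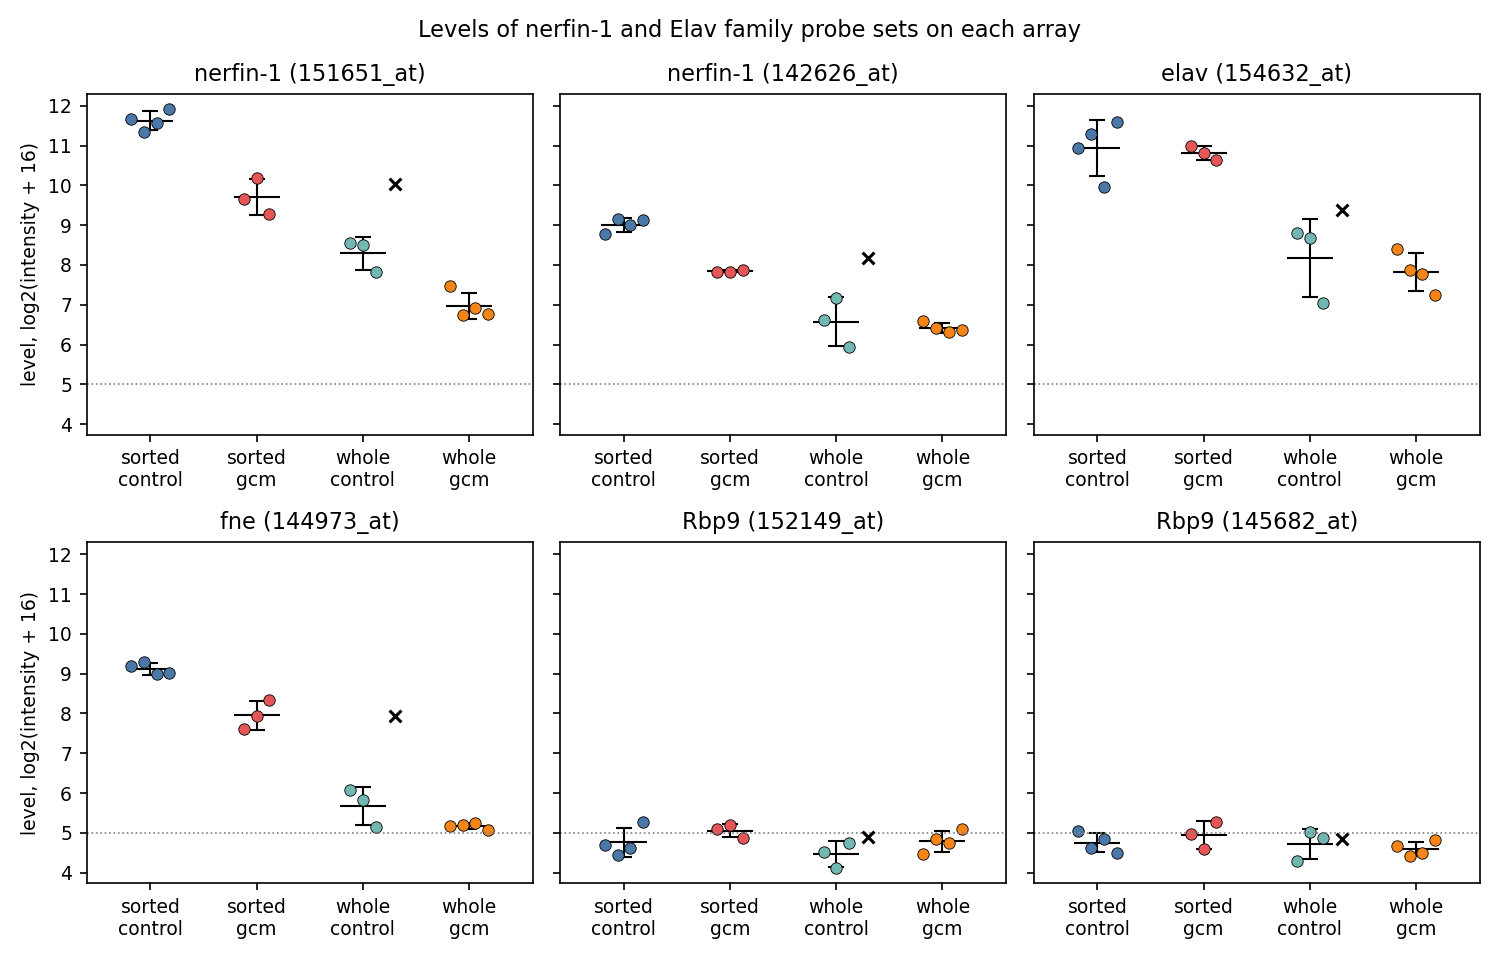
Level of each probe set, as log2 of the normalised intensity plus 16 (y axis), by group (x axis), with 1 point per array, bars for the mean and SD of the 14 arrays, a cross for the array labelled whole control 3 and a dotted line at level 5. The nerfin-1 probe set 151651_at steps down from 11.62 in sorted control to 6.97 in whole gcm, fne follows from 9.13 to 5.17, elav overlaps between gcm and control, and Rbp9 lies near the dotted line.

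The comparison of gcm with control in sorted cells gave lower levels of nerfin-1 and fne with gcm, and overlapping levels of elav and Rbp9. nerfin-1 differed by -1.92 on the log2 scale (SE 0.24, 3.78-fold lower in gcm) by 151651_at and by -1.17 (SE 0.22, 2.25-fold lower) by 142626_at. fne differed by -1.17 (SE 0.22, 2.25-fold lower), while elav differed by -0.13 (SE 0.41). The Rbp9 probe sets differed by 0.30 and 0.20. Hence 3 of the 6 probe sets, both of nerfin-1 and that of fne, were lower with no overlap between the groups, where 4.45% of all probe sets were, and since the members were chosen knowing this contrast nothing is read from that share. The median difference was -0.65 over the 6 probe sets and -0.01 over all. Among all 13966 differences, counted from the lowest, nerfin-1 ranked 2 and 32 by its probe sets and fne ranked 33. With the array labelled whole control 3 the differences were -1.90, -1.17, -0.13 and -1.17 for the nerfin-1 probe sets, elav and fne in that order, with the same 3 probe sets free of overlap.

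In whole embryos only the probe set 151651_at of nerfin-1 was lower in gcm with no overlap, 1 of the 6, where 6.97% of all probe sets were and 2.99% with the array labelled whole control 3. Its difference was -1.32 (SE 0.24, 2.49-fold lower in gcm), again rank 2 from the lowest of all probe sets, and -1.75 (3.37-fold lower) with that array. The probe set 142626_at differed by -0.16 (SE 0.22), fne by -0.50 (SE 0.22) and elav by -0.35 (SE 0.41). Of the 3 pairs of whole arrays with the same number, gcm was the lower in 3 for 151651_at and fne and in 2 for 142626_at and elav. With the array labelled whole control 3, which resembled the sorted arrays, these became -0.56, -1.06 and -0.66, so all 3 moved by over 1.5 times with 1 array. Rbp9 differed by 0.32 and -0.12. Whole control 4 was the lowest of the whole controls for both nerfin-1 probe sets, fne and elav, and leaving it out gave -0.92 for elav, -0.77 for fne and -0.48 for 142626_at. Without whole control 1 the value was -0.04 for elav and -0.30 for fne, and without whole control 2 it was -0.10 for elav and 0.13 for 142626_at.

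The gcm difference in sorted cells lay below that in whole embryos for both nerfin-1 probe sets, with -0.60 and -1.01 between the effects, and for fne, with -0.67. For elav it was the closer to 0 of the pair. The difference between the effects was not tested, because the genes were chosen with both known. In whole gcm fne stood at 5.17, close to the level of background. As to all genes, limma called 0.773% of probe sets in sorted cells (108, 71 higher and 37 lower) and 0.444% in whole embryos (62, 51 higher and 11 lower) at an adjusted p under 0.05, and 0.122% and 0.0573% with the array labelled whole control 3. The count of 108 was 56 without sorted gcm 2 and 183 without sorted control 4, and that of 62 was 10 without whole control 1 and 462 without whole gcm 1.

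**Figure D2:**
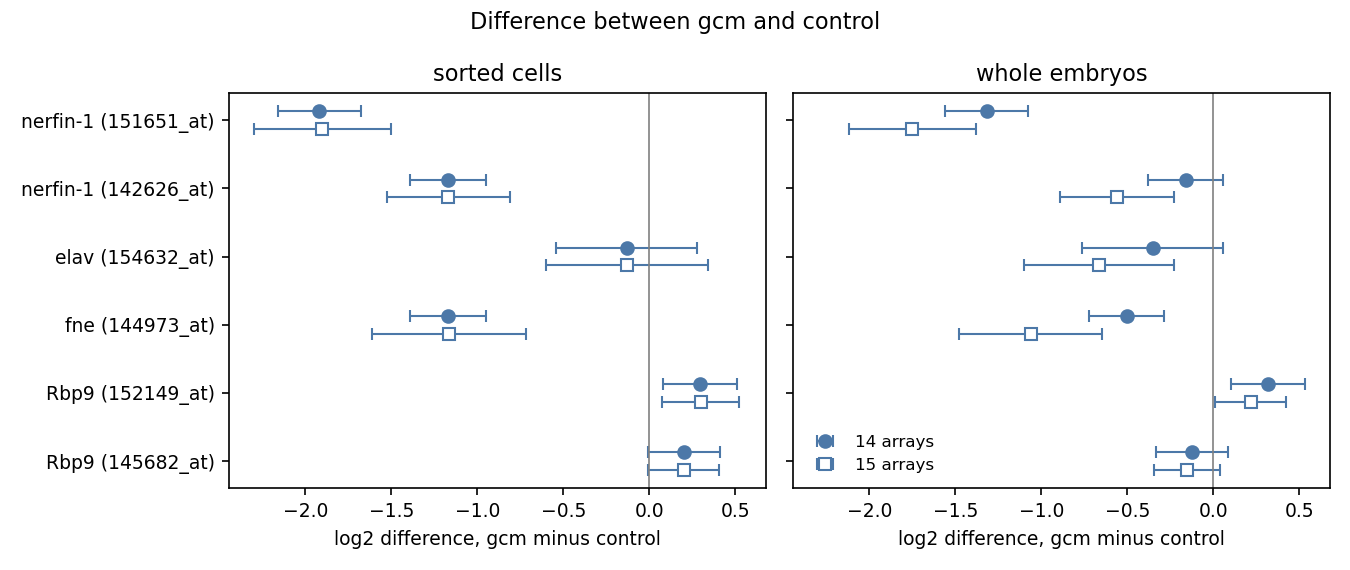
Difference between gcm and control on the log2 scale (x axis) for each probe set (y axis) in sorted cells and in whole embryos, with bars for the SE, filled circles for 14 arrays and open squares for 15. The nerfin-1 probe set 151651_at lies farthest to the left in both, at -1.92 and -1.32, and fne moves in whole embryos from -0.50 to -1.06 with the array labelled whole control 3.

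Purified cells held more nerfin-1, elav and fne transcript than whole embryos, by amounts that depended on the processing. These comparisons use the same arrays as those above, and the genes were proposed with earlier results in view. In the sorted controls nerfin-1 and fne were known to be higher than in sorted gcm. The adjusted p are therefore not those of genes chosen apart from these arrays, and describe the differences only. In controls nerfin-1 was higher in sorted cells by 3.33 (SE 0.24, 10.1-fold, adjusted p = 1.65e-08, limma) by 151651_at and by 2.44 (5.42-fold, adjusted p = 1.65e-07, limma) by 142626_at. fne was higher by 3.45 (SE 0.22, 10.9-fold, adjusted p = 4.16e-09, limma) and elav by 2.77 (SE 0.41, 6.81-fold, adjusted p = 3.48e-05, limma). Every sorted control array lay above every whole control array in these 4 probe sets. The Rbp9 probe sets differed by 0.29 and 0.03 (adjusted p = 0.292 and 0.926, limma) and were not called.

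The same genes were higher in sorted cells of gcm embryos. nerfin-1 was higher by 2.73 (6.64-fold, adjusted p = 1.65e-07, limma) by 151651_at and by 1.43 (2.69-fold, adjusted p = 5.13e-05, limma) by 142626_at. elav was higher by 2.99 (7.94-fold, adjusted p = 1.63e-05, limma) and fne by 2.78 (6.88-fold, adjusted p = 4.83e-08, limma). The excess of elav in sorted cells was 2.99 with gcm and 2.77 without, while those of nerfin-1 and fne were smaller with gcm, and these differences between comparisons were not tested. Rbp9 differed by 0.27 and 0.35 (adjusted p = 0.338 and 0.191, limma).

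Being higher in sorted cells was common on these arrays. In controls 24.9% of probe sets were called higher in sorted cells and 21.4% lower, and 24.6% lay higher with no overlap. In gcm embryos 24.7% were called higher and 20.9% lower, and 27.3% lay higher with no overlap. Against these shares 4 of the 6 probe sets, those of nerfin-1, elav and fne, were called higher and free of overlap in both comparisons. Since the members were chosen with earlier results known, nothing is read from that count. With the array labelled whole control 3 the shares called higher were 12.8% in controls and 19.5% in gcm embryos, and 6.47% lay higher with no overlap in controls. The same 4 probe sets were then called, with adjusted p of 0.00127, 0.00337, 0.00501 and 0.00183 in controls for the nerfin-1 probe sets, elav and fne in that order (limma). The log2 ratio of 3' to 5' actin signal, a measure of RNA quality, was 1.59 to 2.19 in sorted and 0.49 to 1.21 in whole embryo arrays. The same ratio for eIF4a overlapped, at 0.89 to 1.20 in sorted and 0.86 to 1.25 in whole embryo arrays. The part of the actin gap in the differences was not tested.

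**Figure D3:**
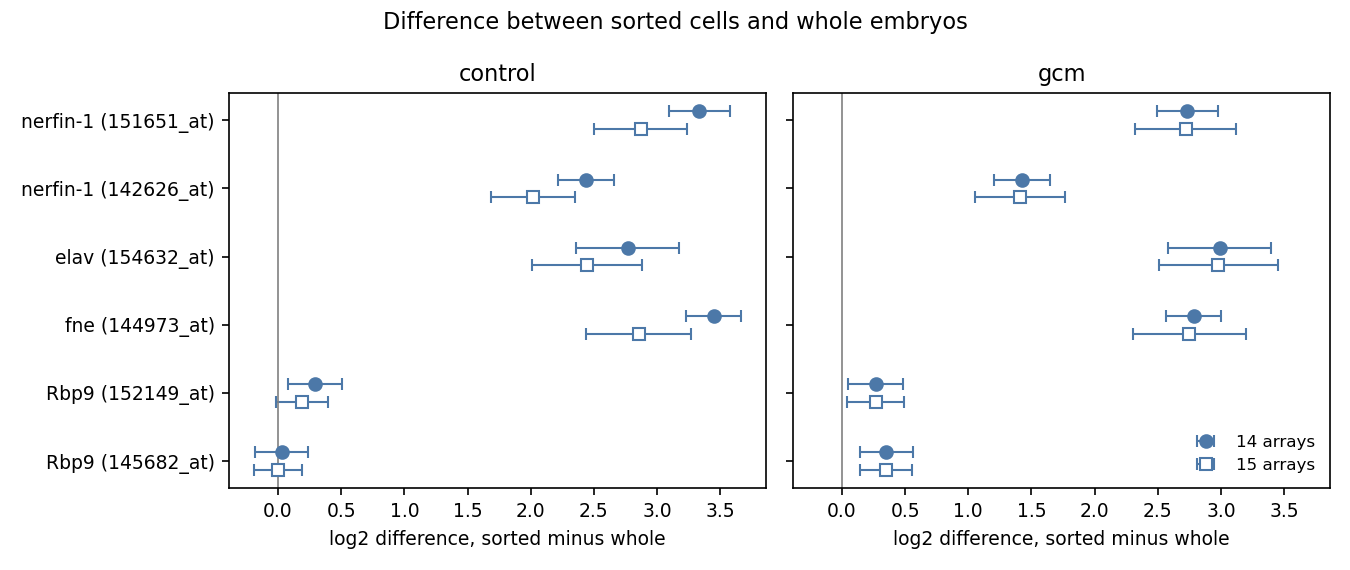
Difference between sorted cells and whole embryos on the log2 scale (x axis) for each probe set (y axis), in controls and in gcm embryos, with bars for the SE, filled circles for 14 arrays and open squares for 15. nerfin-1, elav and fne lie between 1.43 and 3.45 with 14 arrays, and Rbp9 lies between 0.03 and 0.35.

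Of the known targets of Elav, ewg was lower with gcm in sorted cells and Nrg was not called. Of 2 measured targets of Elav splicing, ewg, a transcription factor gene whose neuronal isoform needs Elav, was lower in sorted gcm cells by -1.10, from 8.67 ± 0.26 (SD, n = 4) to 7.58 ± 0.39 (SD, n = 3; adjusted p = 0.0156, limma), and with the array labelled whole control 3 it was not called (adjusted p = 0.506), at a difference of -1.09. With the replicate number entered as a block, a pairing that the sources at hand do not state, ewg was not called either. Nrg, a cell adhesion gene with a neuronal Elav-dependent isoform, was not called, at 12.37 ± 0.14 (SD, n = 4) and 12.36 ± 0.35 (SD, n = 3; adjusted p = 0.995, limma). These probe sets give transcript levels, and the sources at hand do not say which isoform they read. In controls both were higher in sorted cells, ewg by 2.69 and Nrg by 3.72.

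The axon guidance genes known to depend on Nerfin-1 were not called with gcm. Of 6 listed, 4 were measured, and limma called 0 of 4 in sorted cells or in whole embryos. Of all probe sets it called 0.773% and 0.444%, so 0 of 4 says little about these genes. Among them drl, a receptor for axon choice at the midline, had the smallest p in sorted cells, at 11.87 ± 0.13 (SD, n = 4) in control and 11.26 ± 0.36 (SD, n = 3) in gcm (difference -0.61, adjusted p = 0.187, limma). The microtubule gene futsch, the receptor phosphatase gene Lar and the G protein gene Galphao differed by 0.25, 0.04 and 0.07. Their means in sorted control and sorted gcm were 5.17 and 5.43, 5.79 and 5.835, and 5.78 and 5.855, in that order. These lie near the background level of 5, which limits what their small differences can show. In controls drl was higher in sorted cells by 2.97 and Galphao lower, with a difference of -0.75.

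Most other neural RNA-binding protein genes were not called with gcm. Of 14 measured, 1 was higher in sorted gcm cells and 0 lower. That gene was shep, which encodes a neuronal RNA-binding protein of fly behaviour, from 8.47 ± 0.16 (SD, n = 4) to 9.73 ± 0.05 (SD, n = 3), a rise of 1.26 (adjusted p = 0.00299, limma; 0.786 with the array labelled whole control 3, at the same difference). The fly Nova gene ps differed by 0.05 and the fragile X gene Fmr1 by 0.05, while ps was higher by 3.73 and Fmr1 by 2.08 in sorted than in whole controls. In that sorting comparison 7 of the 14 were higher and 1 lower, the latter Rbfox1, with a difference of -1.49.

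Transcription factors of newborn neurons and genes of neuronal structure were mostly uncalled with gcm. Of 14 measured factors, 1 fell in sorted cells, the motor neuron homeobox gene HGTX, from 6.63 ± 0.95 (SD, n = 4) to 4.67 ± 0.12 (SD, n = 3), which is below level 5 (difference -1.96, adjusted p = 0.0245, limma; 0.412 with the array labelled whole control 3, at a difference of -1.94). With the replicate number as a block HGTX was called when the array deposited under 2 numbers was number 3, and not as number 2. Of 13 genes of neuronal structure and synapse, 0 were called in sorted cells, and the calcium channel gene cac had the smallest p, with a difference of -0.67 (adjusted p = 0.117, limma). The adhesion gene Nrt stood at 12.59 in sorted control and 12.62 in sorted gcm, and the cadherin gene CadN at 9.04 and 9.15. Summed over these 13 genes the normalised intensity was 6778 to 8656 in sorted control and 7081 to 8360 in sorted gcm, ranges that overlap, and cac, para and Rab3 had mean intensities under 16 in both.

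In the controls more members of the neuron lists were called higher than lower in sorted cells, where 24.9% of all probe sets were called higher and 21.4% lower. For the newborn neuron factors 6 of 14 were higher and 1 lower, with lola higher by 2.77 and the neuroblast and ganglion mother cell factor pros by 2.41. For neuronal structure 8 of 13 were higher and 1 lower, with CadN higher by 2.38 and the active zone gene brp by 2.06. For neuroblast and neuroectoderm genes 11 of 21 were higher and 4 lower, with the neuroblast factors sna higher by 3.53 and wor by 2.82. The 4 lower were the proneural genes ac and l(1)sc, with differences of -1.58 and -2.07, and SoxN and mira, with -1.23 and -2.25. The median difference was 0.37, 0.96 and 0.56 for these lists and 0.07 over all probe sets. The excess was not particular to them, since 10 of 12 glial genes were higher and 1 lower, with a median difference of 1.21. With the array labelled whole control 3, 4 of 14, 7 of 13 and 8 of 21 were called higher, and 3 of 12 glial genes, against 12.8% of all. Summed intensity of the neuroblast list was 17360 to 21200 over all sorted arrays and 4435 to 7432 over all whole arrays, with ac under 16 in both sorted groups.

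Beside the lower nerfin-1 and fne in sorted gcm cells, 3 of 12 glial genes rose and 9 were not called. Of all probe sets 0.773% were called, in either direction. The 3 were repo, the glial homeobox gene, by 2.46 (adjusted p = 1.86e-05, limma), moody, a receptor of blood-brain barrier glia, by 1.88 and the FGF receptor gene htl by 0.97. None were called lower, Inx2, a gap junction gene, having the lowest difference at -0.88 (adjusted p = 0.155, limma). The median difference of the 12 was 0.285. Summed over the 12 the normalised intensity was 8641 to 11630 in sorted control and 10240 to 11620 in sorted gcm, ranges that overlap. With the array labelled whole control 3 limma called 0 of the 12 (and 17 of all probe sets), repo having an adjusted p of 0.518, while the differences of repo, moody and htl were 2.45, 1.87 and 0.97. That array is in neither group compared. Of 21 neuroblast genes 1 fell, the POU factor gene nub, by 0.98 (adjusted p = 0.0345, and 0.366 with that array at the same difference, limma). In whole embryos repo was the only gene called in any list from 14 arrays, higher by 1.91 (adjusted p = 8.88e-04, limma). With the replicate number as a block, an assumed pairing that the sources at hand do not state, the glial gene nrv2 was also called, lower. The neuronal gene insb was called too when the array deposited under 2 numbers was entered as number 3. Without the block the differences of nrv2 and insb were -0.99 and -0.87, each with an adjusted p of 0.0509 (limma).

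**Figure D4:**
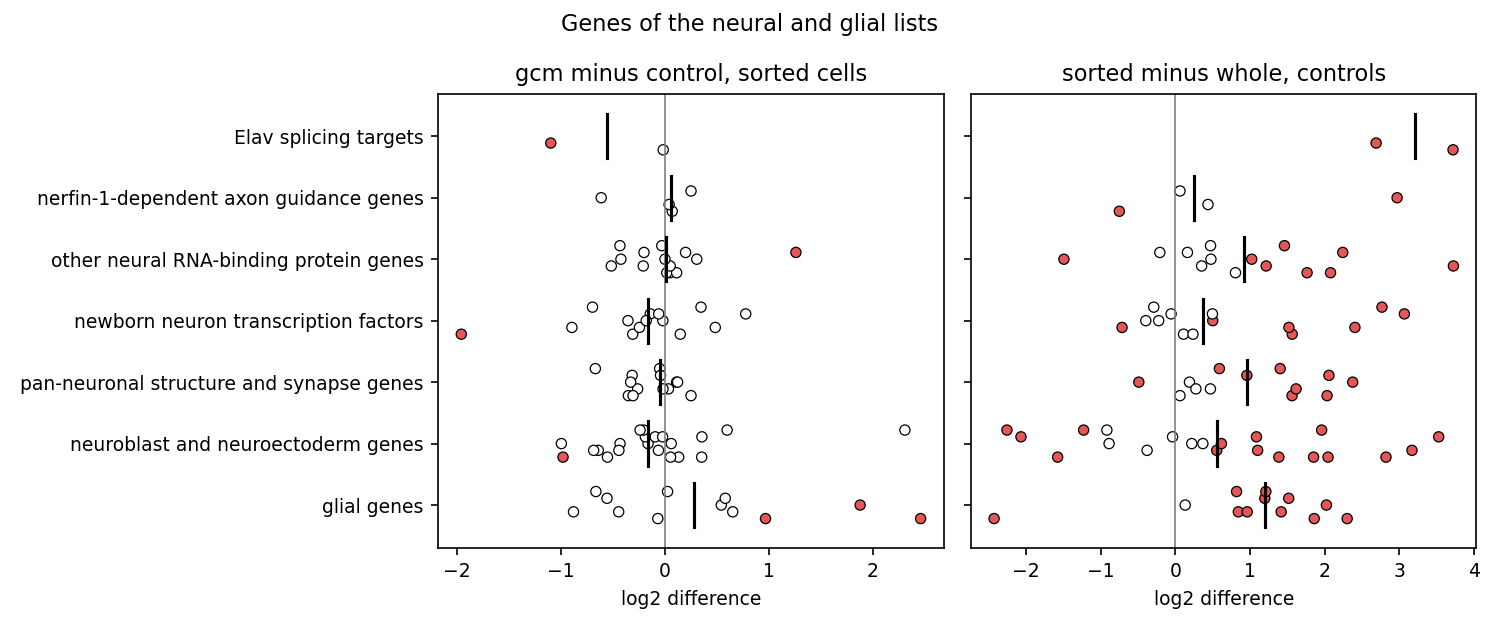
Difference on the log2 scale (x axis) of each measured gene, as 1 point, in the 7 neural and glial lists (y axis). Panels give gcm against control in sorted cells and sorted against whole in controls. Called genes are red, with a bar at the median of each list. With gcm the called genes are few, 1 in each of 4 lists and 3 among glial genes, while in the sorting comparison called genes lie mostly to the right of 0.

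Some markers of other cell types were also called with sorting. In controls 3 of 10 hemocyte genes were higher in sorted cells and 2 lower, with Col4a1 higher by 2.34, a share near the 24.9% of all probe sets called higher, and with the array labelled whole control 3 it was 1 of 10. The summed hemocyte intensity was 1437, 4550, 1191 and 2036 in sorted control arrays 1 to 4 and 1946 to 2448 in sorted gcm, so sorted control 2 stood high. Sorted control 3, the array of lowest elav, had the lowest hemocyte sum. All 3 measured trachea genes were higher in sorted cells, with summed intensities of 3378 to 3952 in sorted control, 1764 to 2351 in sorted gcm and 413.4 to 666.7 in whole control. Of 6 mesoderm genes 3 were called higher (1 with the array labelled whole control 3) and 0 lower, and of 10 endoderm, yolk and germ cell genes 1 was higher and 1 lower. With gcm in sorted cells NimC4, of the hemocyte list, rose by 1.34 (adjusted p = 6.33e-04, and 0.0112 with the array labelled whole control 3, limma). It was the only 1 of the 10 hemocyte genes called, and the median difference of the 10 was -0.26. In controls NimC4 was lower in sorted than in whole arrays, with a difference of -0.82. With gcm in sorted cells the trachea gene kni fell by 1.05 (adjusted p = 0.00689, and 0.914 with the array labelled whole control 3 at the same difference, limma). There 0 mesoderm and 0 endoderm, yolk or germ cell genes were called. The hemocyte genes crq and lz had mean intensities under 16 in both sorted groups. The part of these cell types in the levels of nerfin-1, elav and fne was not tested.

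Genes with the pattern most like each member were sought among probe sets with 1 symbol and a mean level of at least 7, over the 14 arrays, which fall into 4 groups and share them with the members. For nerfin-1 (151651_at) they were Oseg4 (Pearson r = 0.984), meru (0.978) and CG6329 (0.978), and Oseg4 stepped from 8.39 in sorted control to 7.85 in sorted gcm, 7.18 in whole control and 6.74 in whole gcm. For fne they were CG3335 (0.989), the myosin-like gene Mhcl (0.988) and the integrin gene mew (0.984). For elav they were TP53INP (0.985), the cell cycle factor E2f1 (0.983) and ZAP3 (0.982), and E2f1 stood at 10.88 and 10.87 in sorted control and sorted gcm and at 8.96 and 8.81 in whole control and whole gcm. For Rbp9 the highest was CG3587, at 0.792. The correlation within groups, after the group means were removed, was 0.668 for Oseg4, 0.571 for CG3335 and 0.900 for TP53INP. For nerfin-1 and fne with each other it was 0.96 over all arrays and 0.188 within groups, so their likeness lay mostly between groups.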

How the data were processed

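The deposited table gives 1 linear intensity per probe set and array for 14010 probe sets and 16 arrays. The sources at hand do not state how the authors derived or scaled these intensities. Scanner files, from which depth or background per spot could be read, were not used here. The identical arrays sorted gcm 2 and 3 were entered once, under number 2.

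The arrays of each fit were quantile normalised and taken as log2(intensity + 16). The 44 control probe sets were left out and no filter was applied, which left 13966. Groups were compared with limma 3.58.1 in R 4.3.3, with 1 mean per group over all arrays of the fit, a variance trend with intensity and Benjamini-Hochberg adjustment over all probe sets, called under 0.05. A first fit omitted the array labelled whole control 3 and a second included it. The pipeline was tested on simulated data. For a gene with several probe sets, list values use the one with the highest mean. Positions come from RefSeq's gene table, release 6.

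The members, lists, tests and the handling of that array were chosen with earlier results of these data known. Of 133 list genes 108 were measured. The text names the members, up to 4 genes per list by smallest p, 3 most alike genes per member, and gcm and repo. Named after their values were seen were ps, Fmr1, Nrt and CadN with gcm, and Rbfox1, brp, ac, l(1)sc, SoxN, mira, lz, para and Rab3.

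Residuals of same-numbered whole control and whole gcm arrays correlated at 0.202 to 0.343 over 3 pairs, and at -0.287 to 0.29 for other pairs, so the numbers were taken to pair those arrays. That is an assumption, since the ranges overlap and the sources at hand state no pairing. The main fits have no block, so the 62 whole embryo calls and their adjusted p are unpaired. With the number as a block the whole embryo comparison gave 110 calls when the array deposited under 2 numbers was number 3, and 43 as number 2, against 62. In each other comparison at least 1 same-numbered pair was at or below 0.0372.

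Alternatives were values as deposited, median centring, normalisation within sorted and within whole arrays, pseudocounts of 1 and 64, omission of the dimmest 40% of probe sets, no variance trend, array weights, only the groups compared, both identical copies counted, the replicate block, and each array left out.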

Additional observations from a re-analysis of the deposited data

How the results depend on the processing

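Of 24 member values 20 kept their sign under all alternatives run. The others, elav with gcm in sorted cells (-0.47 to 0.11), nerfin-1 142626_at with gcm in whole embryos (-0.56 to 0.13) and Rbp9 145682_at with gcm in whole embryos and with sorting in controls, were uncalled or untested. The 8 sorting differences of nerfin-1, elav and fne were called under all 27 alternatives (adjusted p up to 0.00945, limma). Their sizes moved. With values as deposited those in controls were 2.29 for 151651_at, 1.77 for 142626_at, 1.93 for elav and 2.885 for fne. Normalised within preparations, that of 142626_at in gcm embryos was 0.95. The difference of nerfin-1 (151651_at) with gcm in sorted cells was -1.30 with values as deposited, -1.36 with median centring and -1.49 when normalised within preparations, and -1.75 in whole embryos if the array labelled whole control 3 was included. That of 142626_at in sorted cells was -1.03 (pseudocount 64). fne in whole embryos was -1.06 with that array, -0.85 as deposited and -0.25 with a pseudocount of 64. Rbp9 152149_at reached 0.67 and 0.99 with gcm in sorted cells and whole embryos (pseudocount 1). With median centring Rbp9 was called higher in sorted cells, by 0.66 (152149_at, controls, adjusted p = 0.03) and 0.56 (145682_at, gcm embryos, adjusted p = 0.0385).

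The 108 calls with gcm in sorted cells became 17 with the array labelled whole control 3, 58 as deposited (49 higher, 9 lower), 54 with median centring (43 and 11), 38 from only the groups compared and 281 with both identical copies counted, and 56 to 183 without 1 array. The 62 in whole embryos became 8 with that array, 23 and 158 with a pseudocount of 1 and 64, 27 as deposited (14 and 13, with the median of all probe sets moved to -0.19), 100 with median centring (92 and 8), 126 normalised within preparations, 141 without dim probe sets, 35 without the trend, 1127 with array weights, 13 from only the groups compared and 123 with both copies, and 10 to 462 without 1 array. The 6478 sorting calls in controls became 3647 with that array. With the replicate number as a block, where it was not taken to pair samples, the sorted gcm comparison gave 72 or 79 calls, by the number of the array deposited under 2 numbers. In whole embryos, where a pairing was assumed, the block gave 43 or 110. The cause of these moves was not tested. Signals near background limit Rbp9 and whole embryo fne.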

Other observations

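The 2 nerfin-1 probe sets correlated at 0.959 over the 14 arrays and at 0.475 after group means were removed. elav correlated with nerfin-1 (151651_at) at 0.89 and within groups at 0.625, and with fne at 0.932 and 0.533. The Rbp9 probe sets correlated with each other at -0.0663. These values share the arrays and their normalisation and are descriptions.

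In 18 sets of member values within groups of 4 arrays, 0 held an array farther from the others than Dixon's critical value. The whole control sets included the array labelled whole control 3, the highest of its group for the nerfin-1 probe sets and fne. It was not flagged there, although it went against its label. With 4 arrays the test thus missed it, and the count of 0 does not show that no array stood apart.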
